A study of Mus musculus with 20 samples.

Results

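The 9 genes described here encode bromodomain and extra-terminal (BET) proteins, namely *Brd2*, *Brd3* and *Brdt*, and the proteins that form and restrain the elongation kinase P-TEFb, namely *Cdk9*, *Ccnt1*, *Ccnt2*, *Hexim1*, *Larp7* and *Mepce*. They were chosen by gene symbol from the 24421 genes of the count table, with earlier results of these data known. All 9 were listed there, and all 9 were among the 12465 genes that passed the filter on low counts and were tested.

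Bulk RNA-seq was performed on dendritic cells grown from the bone marrow (BMDC) of 5 mice, named A to E, in culture for 8 days with 40 ng/mL of the growth factor GM-CSF. Each mouse gave cells that received the BET inhibitor I-BET151 (iBET) at 3.3 µM or the solvent DMSO, together with ovalbumin alone (Ova) or with ovalbumin bound by IgG in immune complexes (IC), for 4 hours. The labels add that cells were sorted into lysis buffer and name no gate. The 4 groups, named DMSO Ova, iBET Ova, DMSO IC and iBET IC, hold 5 libraries each, and none was free of ovalbumin. The labels give no genotype, sex or age for the 5 mice. The study's methods list wild-type C57BL/6, fluorescent reporter and *Fcgr2b*-deficient mice, of both sexes, and do not say which gave the cells sequenced here. The labels describe iBET and stimulus as given together, whereas the methods place iBET before the stimulus. The labels give 5% DMSO for the solvent and nothing on the DMSO content of the iBET wells. From the labels alone, iBET and a difference in solvent cannot be told apart. The methods describe iBET for cultures as diluted from a stock in DMSO, beside a DMSO control. They name 5% DMSO only for the iBET given to mice.

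BET proteins carry a pair of bromodomains that bind acetylated lysines on histones, and an inhibitor such as iBET occupies that pocket. P-TEFb is the kinase CDK9 with cyclin T1 or cyclin T2, and it phosphorylates paused RNA polymerase II and its negative factors so that elongation can start. In most cells a large share of P-TEFb is held inactive by HEXIM1 on the 7SK small nuclear RNA, which MEPCE caps and LARP7 stabilises, and release from this complex activates the kinase. Many cell types raise *HEXIM1* mRNA when treated with BET inhibitors, for which reason it is used as a readout of drug exposure.

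The libraries held 16447491 to 29245150 counts each (median 21764663), so that *Brd2* rested on at least 3471 counts per library and *Brdt* on at most 30. Of 12 dendritic markers, 12 reached a mean of 1 CPM (counts scaled to a common library size by the TMM method) in each DMSO group and 11 in each iBET group, in which *Flt3* fell short. *Itgax*, which encodes CD11c, lay between 1962 and 2285 CPM on average, whereas *Cd3e*, which defines T cells, had at most 2 counts in any library. The summed level of the 12 dendritic markers was higher with iBET in median, at 9611 and 11493 CPM in the DMSO Ova and iBET Ova groups (ranges 7805 to 10968 and 9517 to 12600) and at 10449 and 13792 CPM in the DMSO IC and iBET IC groups (ranges 8951 to 12203 and 10925 to 15061). Only *Itgax*, *Cd74*, *Csf2ra* and *Csf2rb* had higher means with iBET under both stimuli, and every other marker of this list had lower means under both. In DMSO and iBET, *Csf2rb* had means of 2713 and 4282 CPM in Ova and 2901 and 4924 CPM in IC. *Ccr7* had 461 and 331 CPM in Ova and 546 and 409 CPM in IC. *Cd86* had 96.5 and 48.1 CPM in Ova and 109 and 54.0 CPM in IC, and *Ciita* 43.8 and 1.36 CPM in Ova and 46.6 and 1.06 CPM in IC. The summed level of the 7 macrophage markers was lower with iBET, with medians of 2009 and 1387 CPM in the DMSO Ova and iBET Ova groups (ranges 1728 to 2351 and 1268 to 1654) and of 2026 and 1584 CPM in the DMSO IC and iBET IC groups (ranges 1818 to 2457 and 1334 to 1944). Both lists moved with iBET, as the members below did, and their part in the members' changes was not tested. In such bulk libraries, a change in the share of a cell type and a change in RNA per cell cannot be told apart.

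The promoters of *Hexim1* and *Brd2*, the members with the largest changes, and of *Larp7*, the member that did not pass the test under either stimulus, are shown from RefSeq (GRCm38.p6), each from 250 bases before to 50 bases after a RefSeq start. A RefSeq window was found for 8 of the 9 members (10 windows, of which *Brd2* had 3), and the median GC content was 52.7% over all windows against 58.7% to 78.3% for the members' windows. Capitals mark any of 8 short motifs on either strand: the TATA box TATANAA, the cAMP response element TGACGTCA, the NRF1 site GCATGCGC, the GC box GGGCGG, the ETS site CCGGAAG, the E-box CACGTG, the CCAAT box CCAAT and the YY1 site AAGATGGC. The windows lie at chr11:103116075-103116374 on the plus strand for *Hexim1*, at chr17:34122558-34122857 on the minus strand for *Brd2* and at chr3:127553300-127553599 on the minus strand for *Larp7*.
Hexim1: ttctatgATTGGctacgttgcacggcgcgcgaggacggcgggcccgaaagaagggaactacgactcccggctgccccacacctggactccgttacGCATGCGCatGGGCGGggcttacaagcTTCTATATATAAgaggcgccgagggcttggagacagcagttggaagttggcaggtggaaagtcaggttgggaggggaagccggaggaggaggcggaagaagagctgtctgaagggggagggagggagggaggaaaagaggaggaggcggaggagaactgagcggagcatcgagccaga
Brd2: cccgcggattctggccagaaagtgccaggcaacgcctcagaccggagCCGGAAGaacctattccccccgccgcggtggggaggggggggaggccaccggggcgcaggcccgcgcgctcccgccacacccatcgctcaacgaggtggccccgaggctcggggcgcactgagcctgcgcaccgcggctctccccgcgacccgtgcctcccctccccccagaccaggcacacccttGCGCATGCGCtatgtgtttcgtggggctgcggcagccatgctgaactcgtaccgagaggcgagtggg
Larp7: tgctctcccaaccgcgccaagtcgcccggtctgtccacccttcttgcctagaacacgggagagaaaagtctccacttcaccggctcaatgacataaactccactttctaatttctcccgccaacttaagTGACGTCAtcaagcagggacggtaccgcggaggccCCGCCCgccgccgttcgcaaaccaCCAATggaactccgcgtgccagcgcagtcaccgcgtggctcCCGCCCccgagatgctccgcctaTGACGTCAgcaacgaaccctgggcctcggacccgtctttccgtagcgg

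The *Hexim1* window holds TATANAA in both orientations, overlapping each other, and the copy on the strand of the gene begins 29 bases before the gene start in GENCODE M21, which lies upstream of the RefSeq start. TATANAA was found in 11.3% of 32851 mouse promoter windows, and in no other window of a member. The NRF1 site was found in 2.71% of all windows. The *Hexim1* window holds it 155 bases before the RefSeq start, and the *Brd2* window holds overlapping copies in both orientations, the first beginning 17 bases before the start. The *Larp7* window holds 2 cAMP response elements, a motif in 1.79% of all windows. Its other capitals are GC boxes and a CCAAT box, motifs found in 35.7% and 37.4% of all windows. The *Hexim1* window also holds a GC box and a CCAAT box and the *Brd2* window an ETS site (8.86% of all windows), and neither holds the E-box (7.15%) or the YY1 site (2.75%). The *Brd2* window shown is the one whose start lies nearest to the gene start in GENCODE. Its other windows hold no NRF1 site, and hold a GC box each and, in the window at chr17:34119851-34120150, a YY1 site. The motifs were picked with these sequences in view, and a match describes the letters only, not a site in use.

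The first question was how iBET changed the 9 genes in cells given ovalbumin alone or immune complexes. *Hexim1* rose 5.93-fold with Ova and 6.26-fold with IC, and *Brd2* rose 5.25-fold and 5.10-fold. *Mepce*, *Ccnt2*, *Ccnt1*, *Cdk9* and *Brd3* rose by 1.16-fold to 1.80-fold. *Brdt* was 2.53-fold and 2.74-fold higher, but it passed the low-count filter only through its iBET libraries. It is included in the counts and medians below. *Larp7* was the only member that did not pass the test. In total 8 of the 9 genes were higher with iBET under each stimulus, by edgeR's quasi-likelihood test at an adjusted p under 0.05. Of all 12465 genes tested, 27.7% were higher with iBET in Ova and 27.1% in IC by the same rule. The median log2 fold change of the members was 0.66 with Ova and 0.81 with IC, against -0.00287 and -0.00537 over all genes tested. The groups did not overlap for 6 of 9 members with Ova and for 8 of 9 with IC, against 38% and 42.8% of all genes tested.

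**Figure D1:**
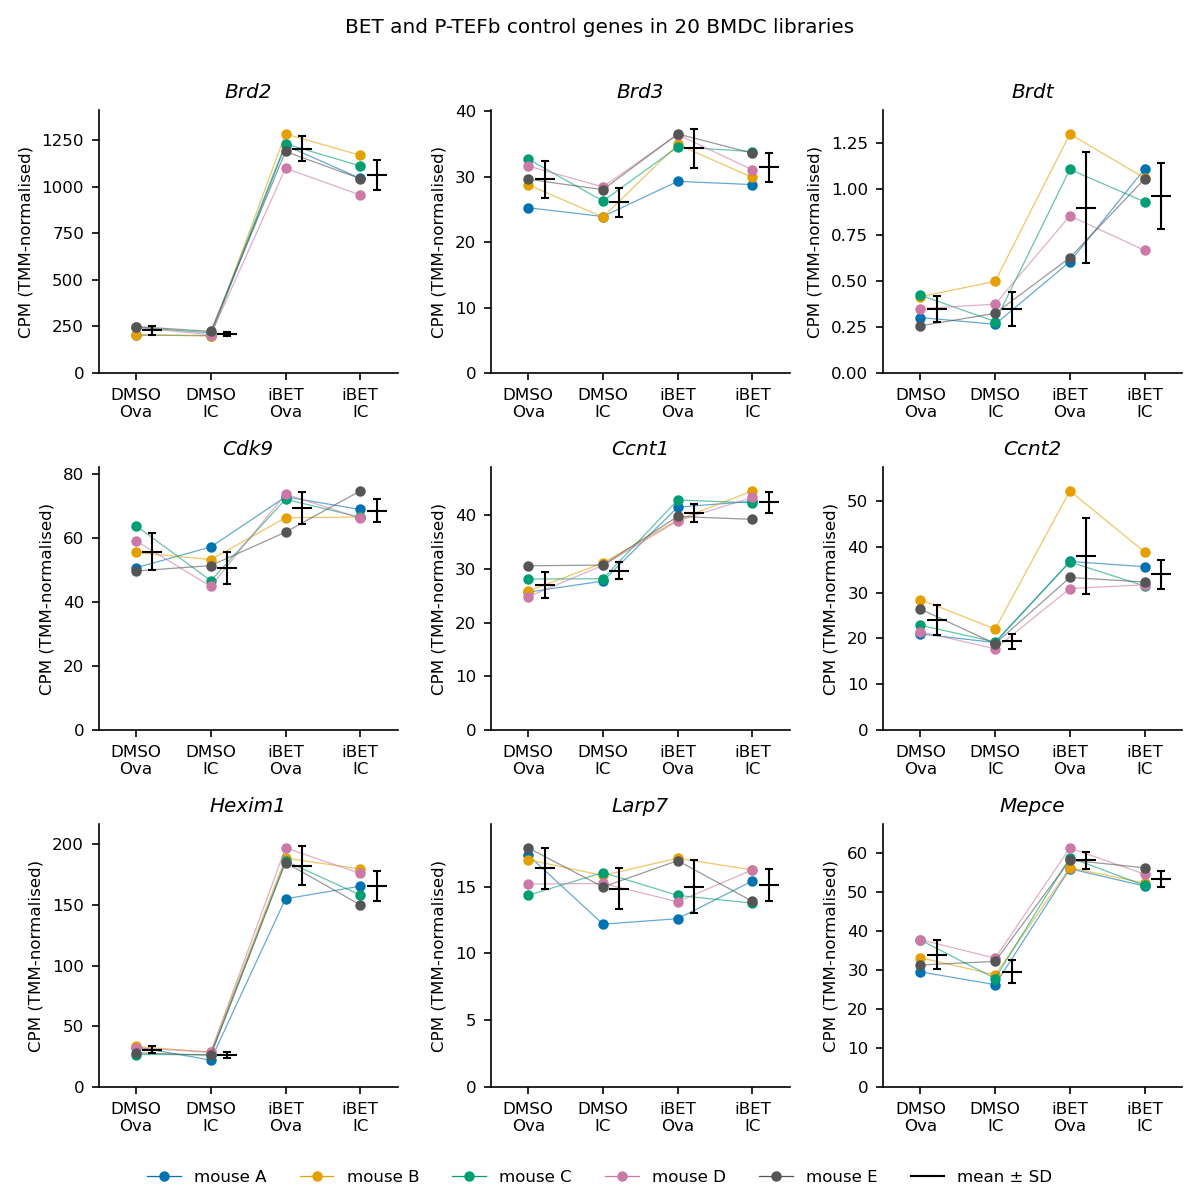
TMM-normalised CPM (y axes, each from 0) of the 9 genes in the 4 groups (x axes), with a point for each mouse, lines joining the 4 libraries of a mouse, and black bars for the mean ± SD of 5 mice. *Brd2* and *Hexim1* stood far higher in all 10 iBET libraries, *Mepce* and *Ccnt1* moved up by a smaller step without overlap, and the *Larp7* groups overlapped.

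*Hexim1* (chr11:103116231-103119725, plus strand) encodes the protein that binds 7SK and inhibits CDK9. In the DMSO Ova group it measured 33.0, 33.4, 26.8, 32.3 and 28.2 CPM in mice A to E, and in the iBET Ova group 155, 189, 186, 197 and 185 CPM. In the DMSO IC group it measured 22.2, 28.6, 26.7, 28.7 and 26.1 CPM, and in the iBET IC group 166, 180, 158, 176 and 150.1 CPM. Every iBET library lay above every DMSO library. The means rose from 30.7 ± 3.03 to 182 ± 16.0 CPM with Ova and from 26.5 ± 2.64 to 166 ± 12.2 CPM with IC (SD, n = 5). By edgeR this was a log2 fold change of 2.57 (SE 0.0880, adjusted p = 1.92e-14) with Ova and 2.65 (SE 0.0885, adjusted p = 1.18e-14) with IC. The rise within a single mouse ranged from 4.70-fold to 6.95-fold with Ova and from 5.74-fold to 7.45-fold with IC. In a ranking of all tested genes by p, *Hexim1* was number 9 with Ova and number 10 with IC.

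*Brd2* (chr17:34112023-34122634, minus strand) encodes a BET protein found in most cell types. It measured 203, 206, 246, 245 and 249 CPM in mice A to E of the DMSO Ova group and 1222, 1283, 1230.2, 1099 and 1189 CPM in the iBET Ova group. In the DMSO IC group the values were 201, 199, 215, 205 and 223 CPM, and in the iBET IC group 1044, 1169, 1112, 956 and 1043 CPM. The lowest iBET library was thus several-fold above the highest DMSO library. The means rose from 229.6 ± 23.1 to 1205 ± 68.1 CPM with Ova and from 209 ± 10.4 to 1065 ± 80.4 CPM with IC (SD, n = 5). The log2 fold change by edgeR was 2.39 (SE 0.0758, adjusted p = 1.09e-14) with Ova and 2.35 (SE 0.0757, adjusted p = 8.39e-15) with IC, and *Brd2* ranked number 4 and number 7 by p. In GENCODE, *Brd2* overlaps *H2-DMa* on the opposite strand (chr17:34119541-34139101), and whether the counting used strand is not given in the sources used here. *H2-DMa*, which encodes a subunit of an antigen presentation chaperone, did not move with *Brd2*: it gave a log2 fold change of -0.30 (adjusted p = 0.0145, edgeR) with Ova and -0.09 (adjusted p = 0.441, edgeR) with IC.

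The other BET genes differed from *Brd2* in level and in size of change. *Brd3* (chr2:27445579-27507662, minus strand), a BET protein of wide expression, measured 25.3, 28.8, 32.7, 31.6 and 29.6 CPM in mice A to E with DMSO Ova and 29.3, 34.9, 34.5, 36.4 and 36.5 CPM with iBET Ova. These ranges overlapped. With IC the values were 23.9, 23.8, 26.3, 28.4 and 28.0 CPM in DMSO and 28.8, 29.9, 33.8, 31.0 and 33.6 CPM in iBET, which did not overlap. The log2 fold change in Ova was 0.21 (SE 0.0804, adjusted p = 0.0282, edgeR) and in IC 0.27 (SE 0.0806, adjusted p = 0.00825, edgeR), in the same direction in 5 of 5 mice. The call with Ova was lost on leaving out mouse B (adjusted p = 0.0525), mouse D (0.0671) or mouse E (0.104). With scaling by library size alone neither call held, at adjusted p = 0.135 with Ova and 0.0510 with IC.

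*Brdt* (chr5:107331159-107387058, plus strand) encodes the BET protein of the testis and stood near the limit of detection. Libraries of the DMSO groups held 5 to 11 counts and libraries of the iBET groups 14 to 30. The DMSO means were 0.349 ± 0.0720 CPM with Ova and 0.349 ± 0.0944 CPM with IC, and the iBET means were 0.900 ± 0.303 and 0.965 ± 0.179 CPM (SD, n = 5). The log2 fold changes were 1.34 (SE 0.258, adjusted p = 0.000187, edgeR) and 1.45 (SE 0.254, adjusted p = 6.67e-05, edgeR). *Brdt* passed the low-count filter only through its iBET libraries. The counts and medians above include *Brdt*, and its place among the genes called, or without overlap, gives them no support. Without *Brdt*, the median log2 fold change of the members lies between *Ccnt1* and *Ccnt2*: 0.58 and 0.66 with Ova, 0.51 and 0.81 with IC. Of 4 testis markers, *Prm1* and *Tnp1* had 0 counts in all libraries. *Prm2* had at most 3 counts and was lower with iBET, at means of 0.0366 and 0.0174 CPM in DMSO Ova and iBET Ova and 0.0445 and 0 CPM in DMSO IC and iBET IC. *Ddx4* had 1 to 13 counts per library and stood higher with iBET, at 0.181 and 0.332 CPM on average in DMSO Ova and iBET Ova and at 0.129 and 0.330 CPM in DMSO IC and iBET IC, and the relation of these genes to *Brdt* was not tested.

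The kinase and its cyclins rose by small steps. *Cdk9* (chr2:32705784-32713076, minus strand), the catalytic subunit, measured 50.6, 55.4, 63.7, 59.0 and 49.6 CPM in mice A to E with DMSO Ova and 72.7, 66.2, 71.98, 73.6 and 61.7 CPM with iBET Ova. With IC it measured 57.1, 53.1, 46.6, 44.8 and 51.3 CPM in DMSO and 68.8, 66.4, 66.3, 66.1 and 74.6 CPM in iBET. The ranges overlapped with Ova and not with IC. The log2 fold change by edgeR was 0.31 (SE 0.0781, adjusted p = 0.00189) with Ova and 0.44 (SE 0.0782, adjusted p = 8.71e-05) with IC. *Mir2861* and *Mir3960* lie within *Cdk9* on the same strand.

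*Ccnt1* (chr15:98538689-98570923, minus strand), which encodes cyclin T1, ranged from 24.8 to 30.6 CPM with DMSO Ova and from 39.0 to 42.8 CPM with iBET Ova. With IC it ranged from 27.7 to 31.1 CPM in DMSO and from 39.2 to 44.5 CPM in iBET. Neither pair of ranges overlapped, and the log2 fold changes were 0.58 (SE 0.0609, adjusted p = 1.09e-07, edgeR) and 0.51 (SE 0.0606, adjusted p = 5.40e-07, edgeR). An antisense gene, *9330020H09Rik*, overlaps *Ccnt1*, and without a known strand setting their reads cannot be told apart.

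*Ccnt2* (chr1:127774164-127808061, plus strand), which encodes cyclin T2, measured 20.99, 28.5, 22.9, 21.5 and 26.4 CPM in mice A to E with DMSO Ova and 36.8, 52.2, 36.7, 30.9 and 33.3 CPM with iBET Ova. Mouse B was the highest in both groups. With IC it ranged from 17.7 to 22.1 CPM in DMSO and from 31.5 to 38.9 CPM in iBET. The log2 fold change was 0.66 (SE 0.120, adjusted p = 0.000104, edgeR) with Ova and 0.81 (SE 0.121, adjusted p = 1.07e-05, edgeR) with IC.

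The 7SK-binding proteins did not move together. *Mepce* (chr5:137781906-137787655, minus strand), the enzyme that methylates the cap of 7SK, measured 29.5, 33.1, 37.6, 37.7 and 31.2 CPM in mice A to E with DMSO Ova and 55.9, 56.1, 58.7, 61.2 and 58.1 CPM with iBET Ova. With IC it ranged from 26.2 to 33.0 CPM in DMSO and from 51.4 to 56.1 CPM in iBET. It rose 1.71-fold with Ova and 1.80-fold with IC, without overlap of the groups. The log2 fold changes were 0.78 (SE 0.0737, adjusted p = 2.74e-08, edgeR) and 0.85 (SE 0.0739, adjusted p = 9.23e-09, edgeR).

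*Larp7* (chr3:127536714-127553349, minus strand), the chaperone that binds the end of 7SK, measured 17.4, 17.0, 14.4, 15.2 and 17.9 CPM in mice A to E with DMSO Ova and 12.6, 17.1, 14.4, 13.9 and 16.9 CPM with iBET Ova. With IC it measured 12.2, 15.8, 16.1, 15.2 and 15.0 CPM in DMSO and 15.4, 16.2, 13.8, 16.3 and 13.9 CPM in iBET. These groups overlapped throughout. The log2 fold change was -0.13 (SE 0.0970, adjusted p = 0.273, edgeR) with Ova and 0.03 (SE 0.0970, adjusted p = 0.841, edgeR) with IC. No alternative setting gave a call for *Larp7* in any comparison, although a miss of the threshold does not show that its level was equal. The *Mir302* cluster lies inside *Larp7* on the opposite strand.

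**Figure D2:**
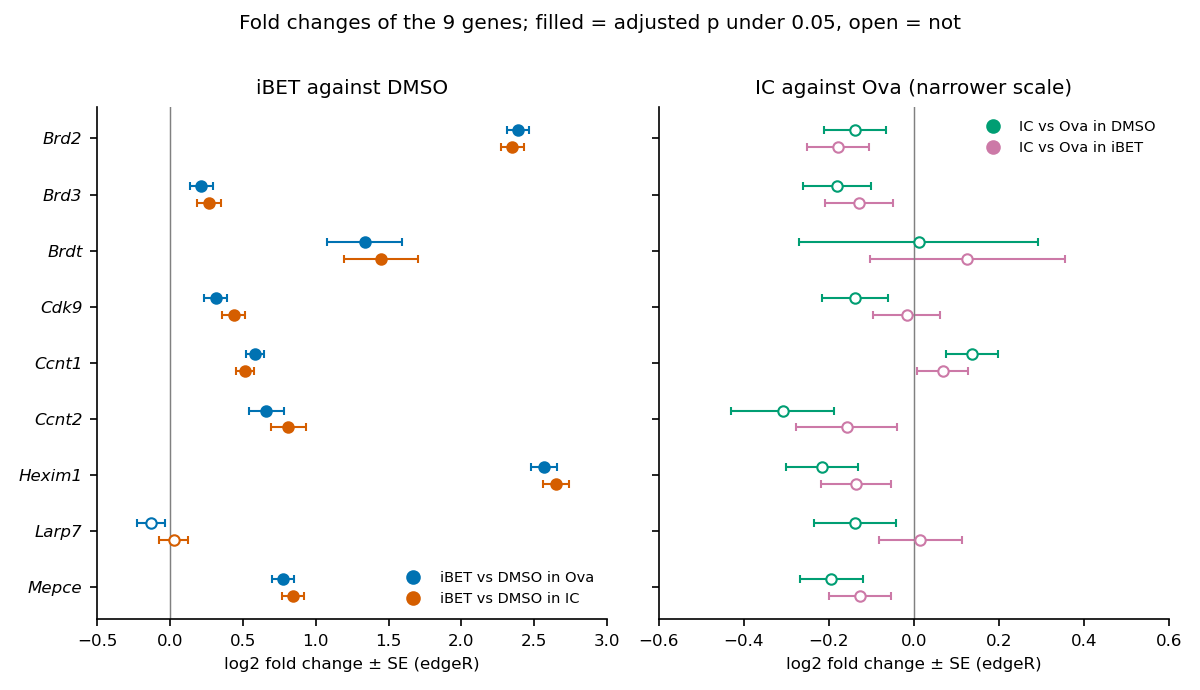
Log2 fold change from edgeR ± SE derived from its F statistic (x axes, on different scales) of the 9 genes (y axis). The left shows iBET against DMSO and the right IC against Ova, with filled points for an adjusted p under 0.05. With iBET 8 genes are filled under each stimulus and *Larp7* is open, and on the right every point is open in this fit without the mouse.

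The ratio of reads of a pair of genes within a library does not depend on how libraries are scaled. The median ratio of *Hexim1* to *Cdk9* reads was 0.569 (range 0.421 to 0.652) with DMSO Ova and 0.539 (0.389 to 0.640) with DMSO IC, and 2.68 (2.13 to 3.00) with iBET Ova and 2.41 (2.01 to 2.70) with iBET IC. All 10 iBET libraries lay above all 10 DMSO libraries. These are ratios of reads, not of levels per length. *Hexim1* to *Larp7* went from a median of 1.90 (1.58 to 2.12) to 12.3 (10.9 to 14.2) with Ova and from 1.81 (1.66 to 1.88) to 10.8 (10.7 to 11.5) with IC. *Brd2* to *Brd3* went from 7.74 (7.16 to 8.41) to 35.6 (30.2 to 41.7) with Ova and from 8.19 (7.22 to 8.41) to 32.8 (30.8 to 39.1) with IC. Each of these 3 ratios was higher with iBET without overlap under both stimuli. *Ccnt1* to *Ccnt2* differed otherwise: its median was 1.16 (0.908 to 1.23) with DMSO Ova, 1.46 (1.41 to 1.73) with DMSO IC, 1.17 (0.749 to 1.26) with iBET Ova and 1.21 (1.15 to 1.37) with iBET IC. The DMSO IC libraries stood above all others in this ratio.

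**Figure D3:**
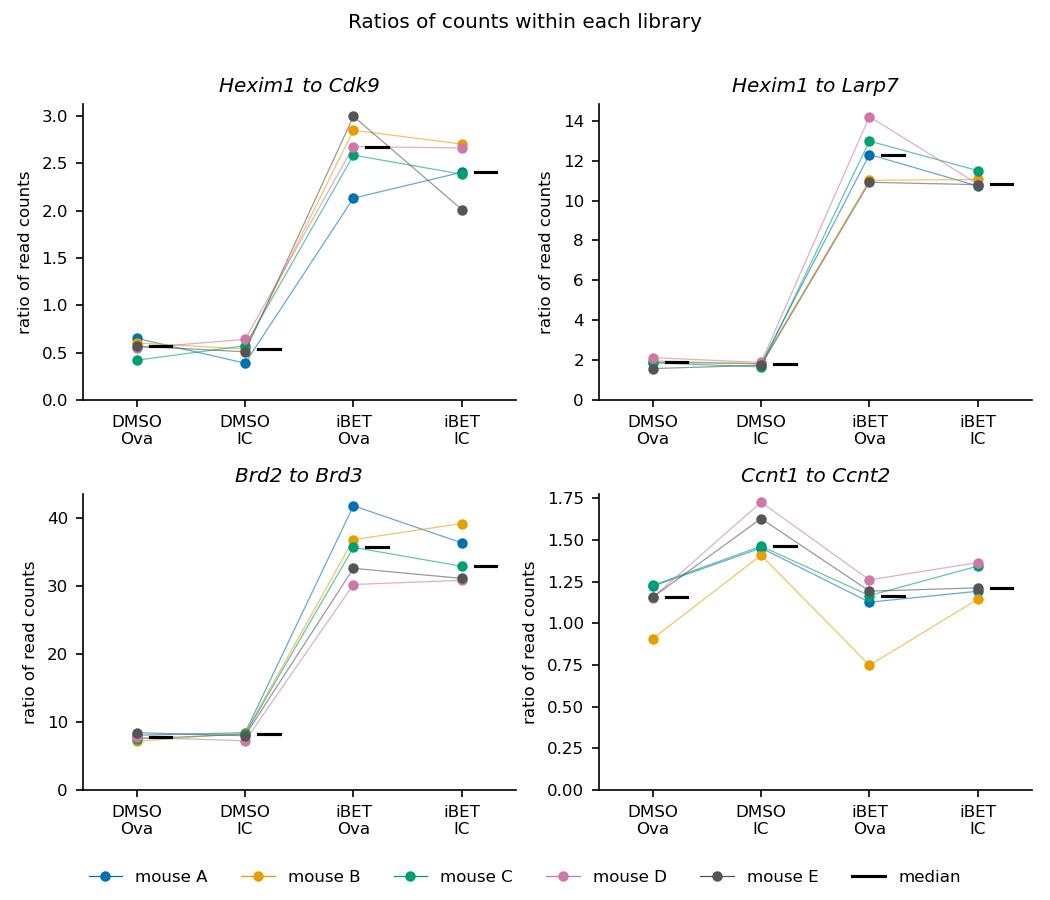
Ratio of read counts of 4 pairs of genes within each library (y axes from 0) in the 4 groups (x axes), with a point for each mouse joined by lines and a black bar for the median. The 3 ratios with *Hexim1* or *Brd2* on top are higher in every iBET library than in every DMSO library, and the *Ccnt1* to *Ccnt2* ratio is highest in the 5 DMSO IC libraries, at 1.41 to 1.73.

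To compare the genes with each other, CPM was divided by the length of the union of exons in GENCODE M21. In the DMSO Ova group the mean level was 29.3 CPM per kb for *Brd2*, 12.1 for *Cdk9*, 9.52 for *Mepce*, 8.80 for *Hexim1*, 6.92 for *Larp7*, 4.03 for *Brd3*, 2.95 for *Ccnt1*, 1.95 for *Ccnt2* and 0.0683 CPM per kb for *Brdt*. Of neighbours in this order, *Mepce* and *Hexim1* overlapped in their ranges over mice and the others did not. The same order held with DMSO IC, where *Mepce* and *Hexim1*, *Hexim1* and *Larp7*, and *Brd3* and *Ccnt1* overlapped. With iBET, *Hexim1* stood second after *Brd2*, at 52.2 CPM per kb with Ova and 47.5 with IC, beside 154 and 136 CPM per kb for *Brd2*. *Mepce* (16.3 and 15.0 CPM per kb) and *Cdk9* (15.0 and 14.8 CPM per kb) followed with overlapping ranges, and their order turned with the length of the longest transcript in place of the union. *Brd3* and *Ccnt1* also overlapped in both iBET groups. *Ccnt1* was above *Brd3* only in the iBET IC group, by the union length and not by the longest transcript. *Brdt* remained last at 0.176 and 0.189 CPM per kb.

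**Figure D4:**
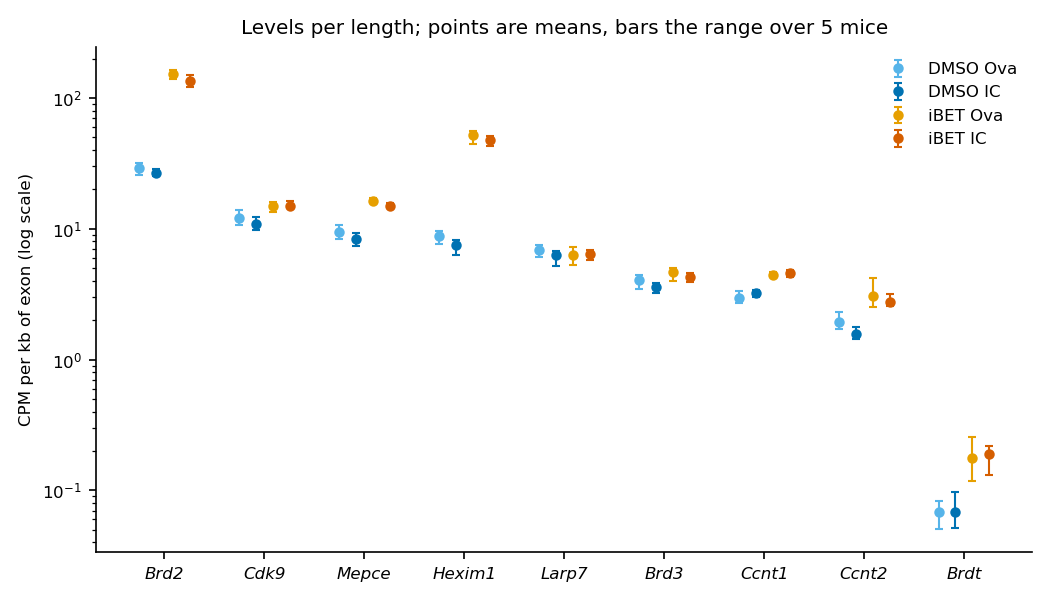
Mean CPM per kb of exon (y axis, log scale) of the 9 genes (x axis, in their order in DMSO Ova), with colours for the 4 groups and bars for the range over 5 mice. *Hexim1* moves from behind *Mepce* in both DMSO groups to the place next to *Brd2* in both iBET groups, and *Brdt* lies far below the rest, under 0.26 CPM per kb in every library.

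The next question was whether immune complexes changed the same genes. The answer depended on whether the pairing of libraries by mouse was fitted, as given in the next paragraph. By edgeR without the mouse in the model, 0 of 9 members passed the test with DMSO and 0 of 9 with iBET. In that fit 20.3% and 11.8% of all genes tested were called. DESeq2 and limma without the mouse in the model also called 0. At an unadjusted p under 0.05, edgeR gave 5 members with DMSO (*Ccnt2*, *Hexim1*, *Mepce* and *Brd3* lower, *Ccnt1* higher) and 1 with iBET (*Brd2*, lower). Many genes met this looser rule: by p, *Brd3* was only number 3784 with DMSO and *Brd2* number 2447 with iBET, of 12465 genes tested. No member's groups separated without overlap, against 12.4% and 10% of all genes. With DMSO the log2 differences, IC minus Ova, ranged from -0.31 for *Ccnt2* to 0.14 for *Ccnt1*, and the median was -0.14 against -0.02 over all genes. With iBET they ranged from -0.18 for *Brd2* to 0.13 for *Brdt*, with a median of -0.13 against -0.01 over all genes.

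The 4 libraries of a mouse are paired, and a replicate block for the mouse gave 4 members as lower with IC in DMSO, where 19.8% of all genes were then lower. These were *Ccnt2* (log2 difference -0.31, blocked adjusted p = 0.00350, edgeR), *Brd3* (-0.18, 0.0107), *Mepce* (-0.19, 0.0152) and *Hexim1* (-0.22, 0.0193), against unblocked adjusted p values of 0.0800, 0.123, 0.0701 and 0.0807. *Ccnt2*, *Brd3* and *Hexim1* were lower with IC in 5 of 5 mice and *Mepce* in 4 of 5. For *Hexim1* the log2 ratio within a mouse ran from -0.571 in mouse A to -0.00526 in mouse C. With iBET only *Brd2* was called with the block (-0.18, blocked adjusted p = 0.0445, edgeR; 0.116 unblocked), lower in 5 of 5 mice, where 14.7% of all genes were lower. *Ccnt1* had the opposite sign in DMSO, at a log2 difference of 0.14 that was not called (adjusted p = 0.0863 blocked and 0.121 unblocked, edgeR). It was higher with IC in 5 of 5 mice, but only by 0.00158 in mouse C and 0.00576 in mouse E. Scaling by library size alone shifted the median of all genes to -0.13 with DMSO and -0.12 with iBET. It called 6 and 3 members as lower, beside 2593 and 2030 of all 12465 genes, so these small differences depend on the scaling.

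The interaction is the log2 fold change by iBET in IC minus that in Ova. It was called for 0 of 9 members by edgeR (adjusted p = 1.00 for each, and 0 at an unadjusted p under 0.05), DESeq2 and limma, where 0.0401% of all genes were called. With the replicate block it was again 0 of 9, with 0.818% of all genes called. The estimate was -0.04 (SE 0.102) for *Brd2* and 0.08 (SE 0.118) for *Hexim1* on the log2 scale. For *Hexim1* the estimate was 0.41 from the libraries of mice A and B and -0.15 from those of mice C, D and E. Its sign also turned on leaving out mouse A alone, at -0.0571. These sets of mice were chosen with earlier results known, and the difference between them was not tested.

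For *Hexim1*, the 5 genes with the most similar log2 CPM over the 20 libraries, of 9782 genes compared, were *Ahi1* (Pearson r = 0.993), *H3f3b* (0.992), *Ctr9* (0.991), *Dok4* (0.991) and *Brd2* (0.990). *Ahi1* rose by 2.80 and 2.87 on the log2 scale with iBET in Ova and IC, and *H3f3b*, which encodes the replacement histone H3.3 and has processed copies that can share its reads, by 2.11 and 2.01. The closest to *Brd2* were the same genes, *H3f3b* (r = 0.993) and *Ahi1* (0.993). For the members with smaller changes they were *Cry2* (0.984) and *Rbm14* (0.981) for *Mepce*, *Txlng* (0.974) and *Herc1* (0.970) for *Ccnt2*, *Pdpk1* (0.968) and *Ppat* (0.963) for *Ccnt1*, and *Heatr5b* (0.951) and *Gna11* (0.943) for *Cdk9*. For *Brd3* they were *Cdk5rap3* (0.946) and *Nckipsd* (0.940), and for *Brdt* *Bicd2* (0.951) and *Dnmbp* (0.939). *Larp7* had no gene as close, with r = 0.827 for *Upf3b* and 0.823 for *Slu7*. The 20 libraries share mice and fall into DMSO and iBET groups, so r over them mostly describes the step between these groups, and it carries no test.

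Partners of P-TEFb in elongation were read from a list of 34 genes (the super elongation complex, the negative elongation factor, DSIF, the PAF1 complex, the kinases CDK7, CDK12 and CDK13, and P-TEFb release factors), of which 33 were tested and *Ell3* was not. In cells given Ova, iBET raised 17 of them and lowered 5, and in cells given IC it raised 15 and lowered 6. Over all genes tested 27.7% and 27.1% were higher with iBET, and 28.9% and 29% lower. The median over the list was 0.23 in Ova and 0.31 in IC on the log2 scale. *Hexim2* (chr11:103132429-103139876), the paralog of *Hexim1* on the same chromosome and also an inhibitor of P-TEFb, went the other way. It fell from 1.94 ± 0.427 to 0.559 ± 0.160 CPM with Ova and from 2.22 ± 0.493 to 0.550 ± 0.145 CPM with IC (SD, n = 5), without overlap, on 7 to 65 counts per library. Its log2 fold change was -1.79 (adjusted p = 1.79e-06, edgeR) with Ova and -1.99 (adjusted p = 3.76e-07, edgeR) with IC.

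*Ctr9*, the scaffold of the PAF1 complex that travels with elongating polymerase, rose from 32.5 ± 1.35 to 95.4 ± 2.64 CPM with Ova and from 32.03 ± 2.12 to 101 ± 3.75 CPM with IC. Its log2 fold change was 1.55 (adjusted p = 1.55e-14, edgeR) and 1.65 (adjusted p = 5.83e-15, edgeR), and it ranked number 7 and number 6 by p over all genes. *Paf1*, of the same complex, rose by 1.06 and 1.104 on the log2 scale (adjusted p = 7.86e-09 and 4.24e-09, edgeR). *Mllt3*, which encodes a reader of acetylated histones in the super elongation complex, rose by 1.07 and 0.93 (adjusted p = 6.99e-07 and 3.72e-06, edgeR). *Eaf2*, which binds ELL elongation factors, had 1 to 7 counts in the DMSO libraries and 30 to 61 in the iBET libraries, with means of 0.179 and 1.86 CPM in Ova and 0.260 and 2.15 CPM in IC. Like *Brdt*, it passed the low-count filter only through its iBET libraries. Its place among the partners raised therefore gives no support to their count, which includes it. For IC against Ova, 5 partners were higher and 3 lower with DMSO, beside 9.59% higher and 10.7% lower over all genes, and 4 were higher and 2 lower with iBET, beside 5.19% and 6.63%. In all, 24.2% and 18.2% of the partners were called, against 20.3% and 11.8% of all genes tested. *Eaf1*, the paralog of *Eaf2*, was 0.77 higher on the log2 scale with DMSO (adjusted p = 0.000131, edgeR) and 0.55 with iBET (adjusted p = 0.00407, edgeR). *Ppp1r10*, a subunit that targets protein phosphatase 1 in the nucleus, was 0.59 and 0.55 higher (adjusted p = 2.76e-06 and 7.04e-06, edgeR).

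**Figure D5:**
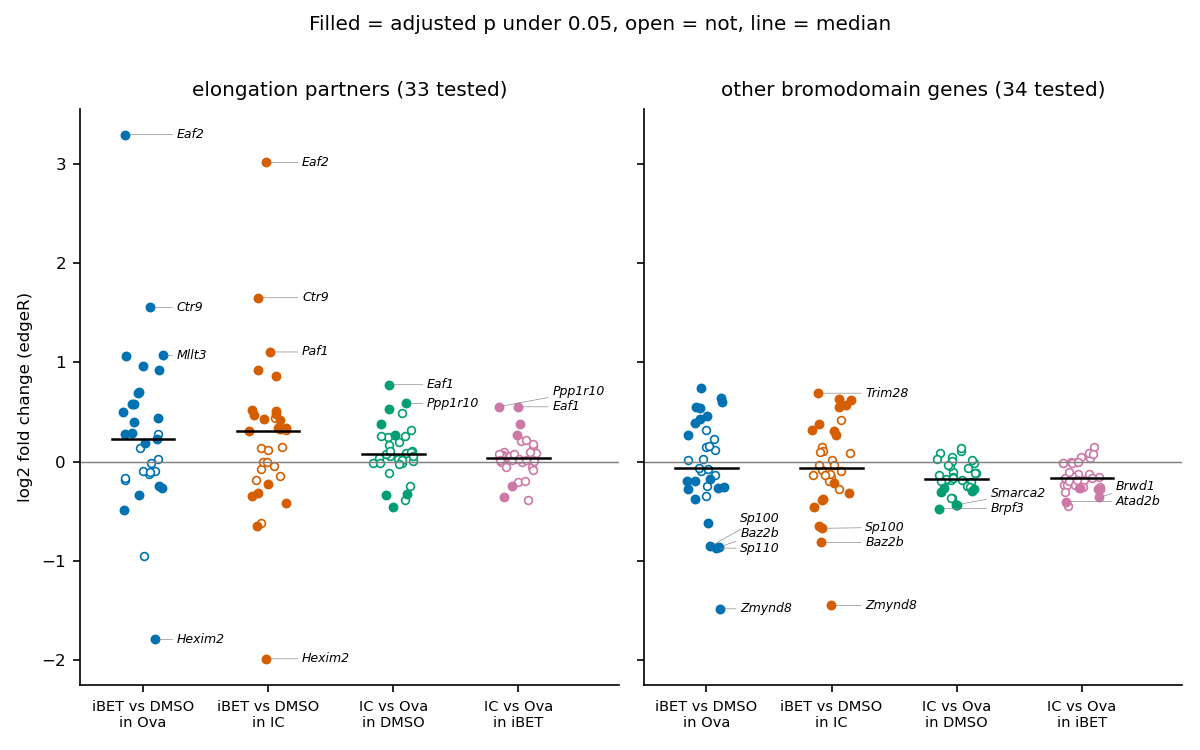
Log2 fold change from edgeR (y axis) of the 33 tested elongation partners (left) and 34 other bromodomain genes (right) in 4 comparisons (x axis), with filled points for an adjusted p under 0.05, a black line at the median and names for the genes picked by the naming rule. *Hexim2* and *Zmynd8* are the lowest named points with iBET, and *Eaf2* and *Ctr9* the highest.

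The other bromodomain genes, a list of 36 without the BET family, of which *Cecr2* and *Trim66* were not tested, moved both ways with iBET. Of 34 tested, 9 rose and 12 fell in cells given Ova, whereas 9 rose and 9 fell in cells given IC, and their median log2 fold change was -0.07 and -0.06. In all, 61.8% and 52.9% of them were called, against 56.6% and 56.1% of all genes tested. *Zmynd8*, a reader of acetylated histones, fell from 105 ± 11.5 to 37.7 ± 4.58 CPM with Ova and from 106 ± 4.41 to 38.7 ± 2.82 CPM with IC, by 1.48 and 1.45 on the log2 scale (adjusted p = 2.22e-11 and 3.05e-11, edgeR). *Baz2b* fell by 0.86 and 0.81 (adjusted p = 4.56e-08 and 1.00e-07, edgeR). *Sp110* fell by 0.87 and 0.65 (adjusted p = 8.79e-06 and 0.000225, edgeR) and *Sp100* by 0.85 and 0.67 (adjusted p = 0.000154 and 0.00152, edgeR), both of a cluster with near-identical copies in mouse whose reads the counting could split. *Trim28*, a co-repressor that works with zinc finger proteins, rose by 0.64 and 0.69 (adjusted p = 1.89e-07 and 7.21e-08, edgeR).

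For IC against Ova, 7 of the other bromodomain genes were lower and 0 higher with DMSO, and 5 lower and 0 higher with iBET (edgeR; 0 were higher also at an unadjusted p under 0.05, and by DESeq2 and limma). Over all genes 10.7% and 6.63% were lower and 9.59% and 5.19% higher. The largest were *Brpf3* (log2 difference -0.47, adjusted p = 0.0381, edgeR) and *Smarca2* (-0.44, adjusted p = 0.00511, edgeR) with DMSO, and *Atad2b* (-0.40, adjusted p = 0.00842, edgeR) and *Brwd1* (-0.36, adjusted p = 0.0272, edgeR) with iBET. The call of *Brpf3* was lost on leaving out mouse B, C or D, of *Smarca2* on leaving out mouse C, of *Atad2b* on leaving out mouse B or C, and of *Brwd1* on leaving out mouse A, B, C or E. With the replicate block 12 and 10 of these genes were lower and again 0 were higher, where 19.8% and 14.7% of all genes were lower.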

How the data were processed

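The 20 BMDC RNA-seq libraries came from 5 mice, each present in all 4 groups. The authors aligned reads to mm10 with HISAT2, counted them on genes with featureCounts and deposited the raw counts. A further table that the authors deposited holds signal values, the counts after division by 1 size factor per library (spread of the factor within a library at most 9.9e-15), so that it holds no removal of batches. The submitters' processing notes also name CASAVA, FastQC and Trim Galore. The annotation used for counting and its strand setting are not given in the sources used here.

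Of 24421 genes, 12465 passed filterByExpr and 6187 were at 0 in all libraries. edgeR 4.0.16 (R 4.3.3) was used for TMM scaling and the quasi-likelihood test, in a single fit of the 20 libraries whose only factor was the group (4 levels), and p values were adjusted over all genes tested with the Benjamini-Hochberg method (threshold 0.05). CPM values are TMM-normalized, and log2 CPM used a prior count of 2. Replicates of a group differed by more than counting error (lowest chi-square over degrees of freedom 12.6, 40 pairs), so errors of CPM are SDs between mice. The SE of a log2 fold change was its absolute value divided by the square root of the F statistic of the quasi-likelihood test. Libraries of the same mouse, named by the labels, deviated together from their group means (correlation across genes 0.307 to 0.675, mean 0.524, in 30 pairs). Pairs of libraries from different mice and groups gave -0.576 to 0.557 (mean -0.127, 120 pairs), a lower mean with an overlapping range. Libraries of a mouse were therefore taken as paired, and the mouse was fitted as a replicate block beside the unblocked fit.

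The members, gene lists and sets of mice were chosen with earlier results of these data known. All members are named. From the lists of elongation partners and other bromodomain genes, the 4 genes past the threshold with the largest log2 fold change were named per iBET comparison and the 2 largest per IC comparison. For *Hexim1* the 5 genes, and for each other member the 2 genes, with the highest Pearson r were named among those with a mean of at least 100 counts. Other genes of the BET family are not reported here. Gene positions are from GENCODE M21 (GRCm38) and promoters from RefSeq.

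Alternatives tried were the replicate block, DESeq2 1.42.0 (Wald test) with or without that block, scaling by DESeq2's size factors or by library size, no filter, a fit of the 10 libraries compared, 3 surrogate variables from sva 3.50.0, limma 3.58.1 on log2 of the signal values plus a pseudocount of 1, leaving out each mouse, mice A and B or the other 3 mice only, and a floor of 0.5 on the absolute log2 fold change.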

Additional observations from a re-analysis of the deposited data

Results flagged for a closer look

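Within 36 groups of 5 libraries (9 genes in 4 groups), 4 held a library that stood apart from the others by Dixon's criterion at the 95% level (gap over range above 0.71), where chance flags about 1 in 20. *Hexim1* was lowest in mouse A of the iBET Ova group, at 155 CPM, and *Brd3* was lowest in the same library, at 29.3 CPM. *Larp7* was lowest in mouse A of the DMSO IC group, at 12.2 CPM. *Ccnt2* was highest in mouse B of the iBET Ova group, at 52.2 CPM. No cause was tested for these values.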

How the results depend on the processing

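Counts that moved by over 1.5 times, and signs that turned, are given by setting, and the causes were not tested. The share of all genes called is not given by setting here, so these counts show only how far the calls moved. For IC against Ova with DMSO, members called went from 0 to 4 with the replicate block, 4 with DESeq2 and the block, 6 with library size only, 1 with surrogate variables and 1 in mice C, D and E, and from 0 to 1 on leaving out each mouse (1 without mouse B). With iBET they went from 0 to 1, 1 and 3 with the first 3 of these. The replicate block changed no other call of a member. Elongation partners called for IC against Ova went from 8 with DMSO to 14 with the block, 13 with DESeq2 and the block, 3 in mice A and B and 3 at a log2 fold change of at least 0.5, and from 6 with iBET to 3 in mice A and B, 2 at 0.5 and as few as 3 without mouse C. At 0.5 they were 12 and 9 for iBET in Ova and IC, and the other bromodomain genes 10 and 9. Other bromodomain genes called for IC against Ova with DMSO went from 7 to 12 with the block, 12 with DESeq2 and the block, 13 with library size only, 0 in mice A and B, 17 in mice C, D and E and 0 at 0.5, and to 3 without mouse C and 4 without mouse D. With iBET they went from 5 to 10, 12 and 14 with the first 3, 3 in the 10 libraries compared, 9 with surrogate variables, 0 and 1 in the sets of mice, 0 at 0.5, 0 without mouse B and 2 without mouse C.

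The signs that turned were all of log2 differences that were not called. *Brdt* for IC against Ova with DMSO was -0.00473 with the block, -0.00440 with DESeq2 and the block, -0.0949 with library size only, -0.0122 in limma and -0.0574 in mice C, D and E. On leaving out each mouse it ranged from -0.0823 to 0.165, with iBET from -0.0476 to 0.255 and for the interaction from -0.0830 to 0.337. *Larp7* for iBET in IC was -0.0274 with library size only and -0.0474 in mice C, D and E, for IC against Ova with iBET -0.0941 and -0.0445, and its interaction was -0.0279 in those mice. Leaving out each mouse gave *Larp7* -0.0438 to 0.0956 for iBET in IC and -0.0489 to 0.0929 for IC against Ova with iBET, *Cdk9* -0.0880 to 0.0181 for the latter, and interactions of -0.0141 to 0.0852 for *Brd3* and -0.0571 to 0.147 for *Hexim1*. *Ccnt1* for IC against Ova with iBET was -0.0390 with library size only. *Cdk9* was 0.0383 with surrogate variables with iBET, and 0.0471 with DMSO and -0.0750 for the interaction in mice A and B. *Hexim1* with iBET was 0.0184 in mice A and B, and its interaction was -0.151 in mice C, D and E, where that of *Brd2* was 0.000211. *H2-DMa* for iBET in IC was 0.0167 in mice A and B.

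Of the 710 comparisons of a member with an alternative, 649 kept direction and side of the threshold. The calls of *Brd2*, *Hexim1*, *Mepce*, *Cdk9*, *Ccnt1* and *Ccnt2* for iBET held under each stimulus in 16 of 16 alternatives, *Brd3* in 10 with Ova and 14 with IC, and *Brdt* in 15 and 16, lost in mice A and B (adjusted p = 0.0528, edgeR). The floor of 0.5 on the log2 fold change is not among the 16, and *Cdk9* and *Brd3* lay under it with both stimuli. Depth limited *Brdt*, *Eaf2* and *Hexim2*, with at most 30, 61 and 65 counts in a library.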
